A study of Mus musculus with 18 samples.

Results

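Maturation without a type I interferon receptor was examined in thymic XCR1+ dendritic cells (DCs) taken from mice labelled Ifnar1-KO, which lack a chain of that receptor. The arrays were those whose titles carry the Ifnar1-KO label, 6 of the 18 in the series, with 3 arrays of immature and 3 of matured cells. XCR1+ DCs are the DC type specialised in presenting antigens of dying cells to CD8 T cells. In the thymus some of them mature without infection, switch on the chemokine receptor CCR7 and take part in T cell tolerance. Type I interferons bind a receptor of the chains IFNAR1 and IFNAR2, whose kinases JAK1 and TYK2 signal to the nucleus with the help of STAT2 and IRF9 and switch on interferon stimulated genes. Such genes can also be switched on by interferon gamma, interferon lambda or IRF1 without that receptor.

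All mice were untreated and of the B6 strain. The Ifnar1-KO mice were housed specific pathogen free (SPF), as were the wild-type mice of the CTRL group, while a further wild-type group was germ-free (GF). Cells of every group were sorted as CD11b-, CD11c+, MHCII+, CD172a-, XCR1+ and CD8a+. Immature cells were CD117+ and CCR7-, and matured cells were CD117- and CCR7+. Neither the Ifnar1 allele nor the age of the mice is stated. Because the labels leave it unsaid if replicate arrays stem from different animals, p-values here reflect array-to-array spread alone. Sorting fixed the stage, so the arrays hold no information on how many cells reached it.

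Levels are log2 intensities of Affymetrix Mouse Gene ST arrays, and array values are listed in the order of replicates 1, 2 and 3. A change is the mean of CCR7+ minus the mean of CCR7- arrays, given as log2 ± the SE of the limma fit (n = 3 arrays a group). Genes were called at a Benjamini-Hochberg adjusted p under 0.05 over 19938 genes. Over all genes, the arrays of the stages did not overlap for 2871 genes upward (14.4%) and 3021 downward (15.2%). Among called genes, 1805 of the 1878 higher and 2073 of the 2158 lower in CCR7+ cells did not overlap. Later remarks that a called gene separated by stage thus describe its values and add little to the call. Within a stage the Ifnar1-KO arrays correlated at 0.974 to 0.993, and between the stages at 0.909 to 0.935. Replicate 2 stood apart from the other Ifnar1-KO arrays. In CCR7- cells 28 genes lay on it at least log2 2 below both other arrays and 16 above them, in CCR7+ cells 11 and 28, whereas each of the other Ifnar1-KO arrays had 0 to 2 such genes in either direction. Both replicate 1 arrays lack a trailing r in the array code that replicates 2 and 3 carry, and what it stands for is not stated.

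On the Ifnar1-KO arrays the targeted gene still gave signal. Probeset 10436849 (chromosome 16) of Ifnar1 read 8.07, 7.27 and 7.66 in CCR7- and 7.61, 6.07 and 6.96 in CCR7+ cells. In CTRL mice it read 8.09, 8.06 and 8.09, and 7.61, 7.82 and 7.72. Replicates 2 and 3 of the Ifnar1-KO arrays thus lay below the CTRL arrays of their stage, while both replicate 1 arrays lay at their level. The change over maturation was -0.79 ± 0.28 (limma adjusted p 0.0604). Ifnar1 was called lower in CCR7+ cells once the replicate number entered as a block (the paired fit, limma adjusted p 0.00316). No source used here says which exons it probes or which were disrupted, so this signal cannot serve to test the genotype.

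Of the 8 genes of the sort 2 rose, 4 fell and 2 did not pass. Ccr7, the receptor that leads DCs to T cell areas, read 7.85, 8.54 and 7.29 in CCR7- and 12.03, 11.87 and 11.79 in CCR7+ cells. Kit, which encodes CD117, read 8.86, 9.14 and 9.30 and then 6.06, 5.31 and 7.04. Neither gene overlapped between the stages. Their proteins were what the gates selected, so this separation is not independent evidence of maturation. Xcr1 read 11.47, 11.28 and 11.49 in CCR7- cells and 7.37, 4.89 and 8.36 in CCR7+ cells. The matured arrays therefore spread widely (SD 1.78), from 4.89 on replicate 2 to 8.36 on replicate 3, against 6.30 to 6.48 on the CTRL CCR7+ arrays. Fscn1, which bundles actin in the dendrites of mature DCs and was not a sort marker, read 6.41, 8.26 and 6.60 and then 12.77, 12.58 and 12.57, with replicate 2 highest among the immature arrays. Genes of gates that both stages share did not all stay level. Sirpa, which encodes the excluded CD172a, read 5.03, 4.51 and 4.65 in CCR7- and 6.18, 5.28 and 5.77 in CCR7+ cells, a rise of 1.02 ± 0.28 (limma adjusted p 0.0171) without overlap. Itgax (CD11c) fell by 2.14 ± 0.34, from 10.03, 9.66 and 9.83 to 8.17, 6.83 and 8.11. The class II chain H2-Ab1 changed by -0.31 ± 0.09 and read 11.88 to 12.40 on the 6 arrays. Neither Cd8a (-0.04 ± 0.18) nor Itgam (CD11b), which read 3.83 to 4.01, passed (limma adjusted p 0.935 and 0.53). The Sirpa call was lost under 5 of 20 alternatives, among them leaving out the pair of number 1 or number 3, and that of H2-Ab1 under 7 of 20. Transcript of Xcr1 was thus low on CCR7+ replicate 2 although its gate was XCR1+. The gates read surface protein and the arrays transcript.

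Of 19938 genes, 4036 (20.2%) changed with maturation, with 1878 (9.42%) higher and 2158 (10.8%) lower in CCR7+ cells. Counts of called list members below are to be read against these shares. All gene lists were chosen with earlier results of these data known, so their counts are not independent evidence of direction. The largest rises were those of Serpinb1a, Tnfrsf4 and Insl6, and the largest falls those of P2ry6, Naaa and Tlr3. Changes of at least log2 1 were called for 958 genes upward (4.8%) and 1143 downward (5.73%), and changes of at least log2 4 for 35 upward and 18 downward. Taking each numbered pair of arrays by itself, 4033, 4006 and 4033 of the 4036 called genes had the sign of the mean in pairs 1, 2 and 3. Their median absolute change was 1.10, 0.96 and 1.06. With both arrays of number 1 left out 2963 genes were called, with number 2 left out 3802 and with number 3 left out 2973.

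**Figure D1:**
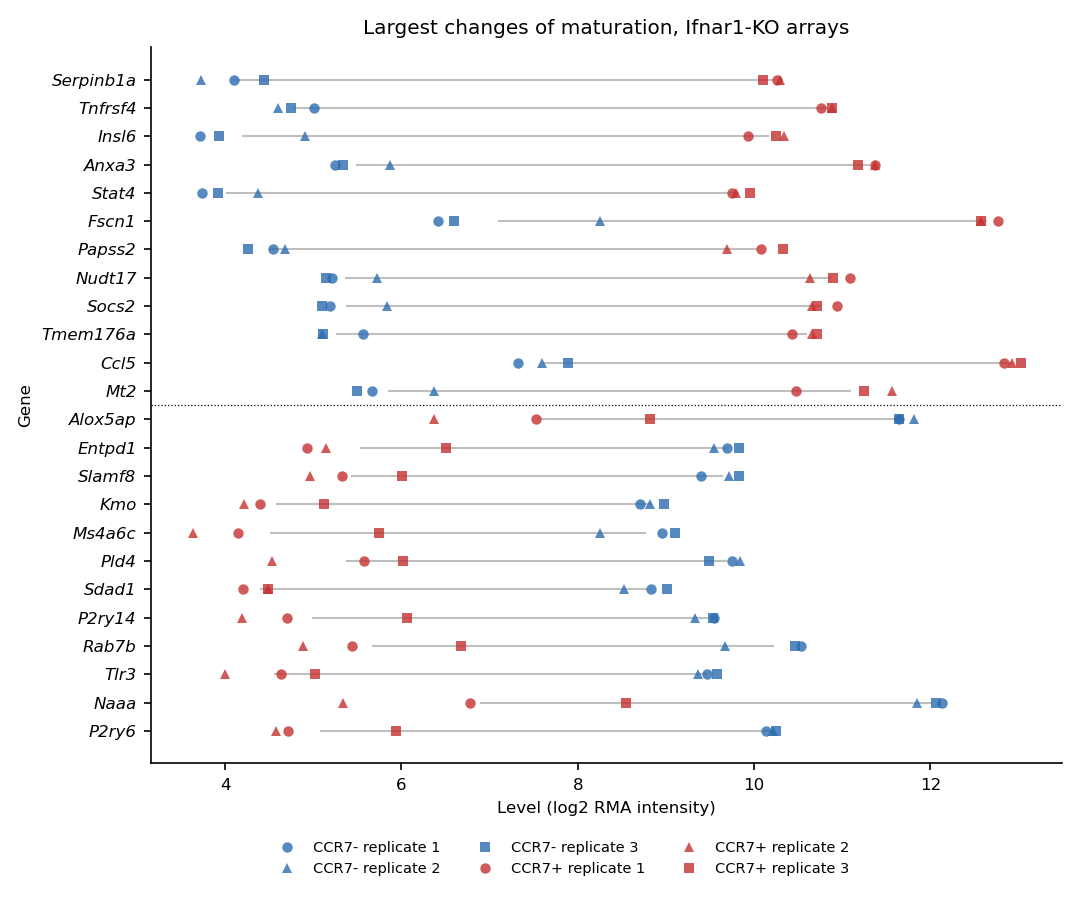
Level of the 12 genes with the largest rises (upper block) and the 12 with the largest falls (lower block) on each Ifnar1-KO array, as log2 intensity; blue marks CCR7- and red CCR7+ arrays, symbols give the replicate, and grey lines join the group means. CCR7+ replicate 3 was the highest and CCR7+ replicate 2 mostly the lowest of the matured arrays among the genes that fell, for example in Naaa at 8.55 and 5.34.

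Serpinb1a, an inhibitor of neutrophil-type serine proteases, read 4.11, 3.73 and 4.44 in CCR7- and 10.26, 10.29 and 10.10 in CCR7+ cells, a rise of 6.13 ± 0.24 (limma adjusted p 6.74e-10). Tnfrsf4 (OX40), a T cell costimulatory receptor of the TNF receptor family, read 5.01, 4.60 and 4.74 and then 10.76, 10.88 and 10.88. The matured arrays of both genes lay close together and far from all immature ones. Anxa3, an annexin that binds membrane phospholipid, read 5.24, 5.87 and 5.34 and then 11.37, 11.38 and 11.18. The transcription factor Stat4 of interleukin 12 signalling read 3.73, 4.37 and 3.92 and then 9.75, 9.80 and 9.96, and Insl6, a relaxin family peptide gene, rose by 5.99 ± 0.30. None of these genes overlapped between the stages, which the rule for naming the largest changes required.

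Further large rises covered several functions. Socs2, a brake on cytokine receptors, rose by 5.40 ± 0.37, and Ccl5, which attracts T cells, rose from 7.32, 7.60 and 7.89 to 12.83, 12.93 and 13.02. Papss2, which makes the sulfate donor of the cell, rose by 5.54 ± 0.31. Nudt17, a nudix hydrolase gene, rose by 5.51 ± 0.25, Tmem176a, a membrane protein gene of immature and tolerogenic DCs, by 5.34 ± 0.31, and the metal-binding metallothionein Mt2 by 5.25 ± 0.31. For Serpinb1a, Stat4 and Insl6 the mean immature level lay within 3.89 to 4.62, the range of the Y-linked Kdm5d on CTRL arrays. On those arrays the Y-linked Eif2s3y read 3.34 to 3.49. Changes that start or end in that range may be lower bounds.

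The largest falls included P2ry6, a receptor for extracellular uridine nucleotides, which read 10.13, 10.21 and 10.25 in CCR7- and 4.72, 4.57 and 5.93 in CCR7+ cells (-5.13 ± 0.33, limma adjusted p 4.12e-08). Naaa, a lysosomal amidase that breaks down lipid amides, read 12.14, 11.85 and 12.07 and then 6.78, 5.34 and 8.55. Immature arrays of these genes agreed within log2 0.3, while the matured ones spread, with replicate 3 highest. The endosomal double-stranded RNA sensor Tlr3 changed by -4.92 ± 0.22, the late endosomal GTPase Rab7b by -4.55 ± 0.37 and P2ry14, the UDP-glucose receptor, by -4.49 ± 0.35. Entpd1 (CD39), which removes extracellular ATP, changed by -4.16 ± 0.49. Pld4, an exonuclease of endosomal DNA, changed by -4.32 ± 0.32, and Kmo, an enzyme of tryptophan breakdown, by -4.26 ± 0.19. The other 4 of the 12 were Sdad1 (-4.39 ± 0.27), Ms4a6c (-4.26 ± 0.40), the SLAM family receptor Slamf8 (-4.22 ± 0.32) and the leukotriene synthesis gene Alox5ap (-4.12 ± 0.49).

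Of 15 interferon genes measured, 1 rose (6.67%, against 9.42% of all genes) and 0 fell. Ifnb1, the first type I interferon made after sensing, read 3.27, 3.35 and 3.25 in CCR7- and 3.30, 3.27 and 3.52 in CCR7+ cells. Ifnl2, an interferon lambda that acts through another receptor, read 5.79, 5.67 and 5.34 and then 6.23, 6.06 and 5.98, a rise of 0.49 ± 0.14 (limma adjusted p 0.019). Its stages did not overlap, but the call was lost without the pair of any number. Probesets of the near-identical Ifna genes may share signal.

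Among 19 interferon receptor and signalling genes 6 rose (31.6%, against 9.42% of all genes) and 3 fell (15.8%, near the 10.8% of all genes). Their median change was 0.12. Ifnar2, the partner chain of IFNAR1, read 9.65, 9.47 and 9.39 in CCR7- and 9.39, 9.61 and 9.67 in CCR7+ cells. Its stages overlapped, and its change of 0.06 ± 0.12 did not pass (limma adjusted p 0.844). Ifngr1, a chain of the interferon gamma receptor, read 9.30, 9.44 and 9.75 and then 6.67, 7.83 and 6.78, and fell by 2.40 ± 0.24. Ifnlr1, the interferon lambda receptor chain, changed by -1.22 ± 0.23 and the phosphatase Ptpn11 by -1.17 ± 0.22. Stat3, which serves interleukin 10 and interleukin 6 receptors, rose by 1.63 ± 0.19, the STAT inhibitor Pias1 by 1.14 ± 0.12 and the phosphatase Ptpn2 by 1.07 ± 0.15. The kinase Jak2 rose by 0.85 ± 0.27, the shared chain Il10rb by 0.80 ± 0.22 and the brake Socs1 by 0.45 ± 0.11. Without the pair of number 1, 3 genes rose and 4 fell, and the rises of Jak2, Il10rb and Socs1 were lost (limma adjusted p 0.145, 0.0743 and 0.0587). The calls of Jak2 and Socs1 were also lost without the pair of number 3, and that of Il10rb without number 2. Jak2 and Il10rb each lost the call under 7 of 20 alternatives and Socs1 under 3. In the paired fit 8 genes rose and 5 fell. Stat2, which carries the type I signal to the nucleus, read 9.25, 8.75 and 8.99 and then 8.86, 7.08 and 8.66, with replicate 2 far below the others in CCR7+ cells. It did not pass at -0.80 ± 0.34 (limma adjusted p 0.124), but was called lower in the paired fit (limma adjusted p 0.0495).

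Type I interferon stimulated genes changed in both directions in the Ifnar1-KO arrays. Of 62 measured genes 18 rose (29.0%, against 9.42% of all genes), 12 fell (19.4%, against 10.8%) and 32 did not pass. Their median change was 0.12 against 0.00 over all genes. In CTRL mice 11 of the same genes rose and 18 fell, with a median of -0.12 against 0.07 over all genes. Over all genes the CTRL maturation had more calls, with 12.6% of genes higher and 13.6% lower. Epsti1, an epithelial-stromal interaction gene induced by interferon, rose by 3.63 ± 0.18, from 8.58, 8.44 and 8.70 to 12.23, 12.13 and 12.25. Its 6 arrays formed 2 tight groups. Ifitm2, which blocks virus entry at endosomes, rose from 7.23, 7.82 and 7.22 to 9.58, 9.65 and 9.58 (2.18 ± 0.20), and Ifit1, which binds viral RNA, from 5.43, 5.59 and 4.99 to 7.51, 7.31 and 7.59 (2.13 ± 0.27). In all 3 pairs these genes rose. Limma adjusted p-values were 2.85e-09, 1.46e-06 and 2.97e-05 for Epsti1, Ifitm2 and Ifit1, and none of the alternatives removed a call.

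Genes of the same antiviral program also rose less. Herc6, a ligase that attaches ISG15, rose by 1.99 ± 0.22, and Ube2l6, the enzyme that hands ISG15 to it, by 1.88 ± 0.27. Rsad2 (viperin) rose by 1.46 ± 0.24, the chaperone Rtp4 by 1.26 ± 0.22, and the oligoadenylate synthetase family members Oasl2 and Oas3 by 1.22 ± 0.25 and 1.18 ± 0.21. Among those that fell, the DNA-binding family members Ifi203 and Ifi205 changed by -2.23 ± 0.28 and -2.06 ± 0.29. Ifi203 read 10.72, 10.04 and 10.50 in CCR7- and 8.51, 7.46 and 8.60 in CCR7+ cells. Ms4a4c changed by -2.24 ± 0.28, and the Schlafen genes Slfn8 and Slfn1, which restrain growth and viruses, by -1.96 ± 0.38 and -1.53 ± 0.28. Ly6e, a surface protein that affects virus entry, read 12.76, 12.91 and 12.81 and then 11.93, 11.71 and 11.87. The stages of Ifi203 and Ly6e did not overlap.

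Promoters of Ifitm2, Ifit1 and Ifi203 are shown so that risers and a faller of one program can be set side by side. They had the largest called changes among list members whose window held the letters described below. That choice fixed the presence of marked matches. Epsti1 rose more and Ms4a4c fell more, but neither had a window with the letters. The windows run from 250 bases before to 50 after the gene start (RefSeq, GRCm38.p6) and are written 5′ to 3′ on the strand of the gene. Capitals mark the core of the interferon response element, searched on both strands as GAAA, any 2 bases and GAAA. Both Ifit1 matches lie on the opposite strand and so begin and end with TTTC. The Ifitm2 window lies at chr7:140955912-140956211 on the minus strand, that of Ifit1 at chr19:34640639-34640938 on the plus strand and that of Ifi203 at chr1:173942443-173942742 on the minus strand.
Ifitm2: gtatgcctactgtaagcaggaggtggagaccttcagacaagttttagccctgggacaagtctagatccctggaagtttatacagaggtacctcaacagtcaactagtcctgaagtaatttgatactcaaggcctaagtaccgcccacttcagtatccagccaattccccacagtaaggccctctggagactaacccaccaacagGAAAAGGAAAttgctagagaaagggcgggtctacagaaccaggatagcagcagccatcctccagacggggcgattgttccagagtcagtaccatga
Ifit1: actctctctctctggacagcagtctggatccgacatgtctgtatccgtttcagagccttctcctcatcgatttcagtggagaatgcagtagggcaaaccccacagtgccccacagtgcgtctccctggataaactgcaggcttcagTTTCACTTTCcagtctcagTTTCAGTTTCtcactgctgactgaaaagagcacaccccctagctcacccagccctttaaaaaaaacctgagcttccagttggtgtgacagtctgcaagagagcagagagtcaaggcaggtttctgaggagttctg
Ifi203: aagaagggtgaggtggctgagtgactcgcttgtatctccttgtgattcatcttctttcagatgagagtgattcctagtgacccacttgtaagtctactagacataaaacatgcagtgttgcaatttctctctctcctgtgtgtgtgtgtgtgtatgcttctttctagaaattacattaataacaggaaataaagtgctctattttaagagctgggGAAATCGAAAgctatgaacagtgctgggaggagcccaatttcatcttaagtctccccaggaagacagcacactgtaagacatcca
Of the 62 genes 48 had a window, and 21 of these held the letters (43.8%), against 605 of the 15563 measured genes with a window (3.89%). Among members with a window, 5 of 13 that rose, 4 of 11 that fell and 12 of 24 that did not pass held them. A match describes letters and is not a measured binding site.

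The arrays did not behave alike for interferon stimulated genes. Mean levels of the 62 genes on the CCR7+ arrays were 8.19, 7.40 and 7.94, against 7.57 to 7.79 on CTRL CCR7+ arrays. In CCR7- cells they were 7.83, 7.65 and 7.85, against 7.84 to 8.03 in CTRL. Replicates 1 and 3 of the matured Ifnar1-KO cells thus lay above every CTRL array of that stage, and replicate 2 below. Replicate 1 was the highest of the 3 CCR7+ arrays for 47 of the 62 genes (75.8%, against 25.7% of all genes) and the lowest for 0. Replicate 2 was the lowest for 51 (82.3%, against 31.0% of all genes). The median change of the 62 genes was 0.26, -0.07 and 0.12 in pairs 1, 2 and 3.

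Without the pair of number 1, 12 of the 62 genes rose and 12 fell. Without the pair of number 2, 19 rose and 9 fell, and in the paired fit 21 rose and 15 fell. Mx1, a GTPase that traps viral particles, read 7.23, 5.70 and 6.77 in CCR7- and 8.61, 5.46 and 7.61 in CCR7+ cells. Its arrays differed more within than between the stages (0.66 ± 0.66, limma adjusted p 0.615). Eif2ak2 (PKR), which halts translation on double-stranded RNA, read 8.72, 7.82 and 8.62 and then 7.99, 6.04 and 7.53. It did not pass (limma adjusted p 0.0761), but was called lower in the paired fit (0.00446), as were Dhx58 (0.0183) and Slfn5 (0.0328). In the same fit Parp14 (0.0215), Znfx1 (0.0461) and Ifitm1 (0.0411) were called higher, and the call of Isg20 was lost (0.096). Irf7, the main factor of the type I response, read 10.07, 10.15 and 10.25 and then 9.89, 9.21 and 9.32 and did not pass (-0.69 ± 0.25, limma adjusted p 0.0722). Replicate 1, whose Ifnar1 level was that of CTRL, and replicate 2, which held the most thymocyte transcript, were the extremes of this list in CCR7+ cells. The part of either value in these counts was not tested.

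**Figure D2:**
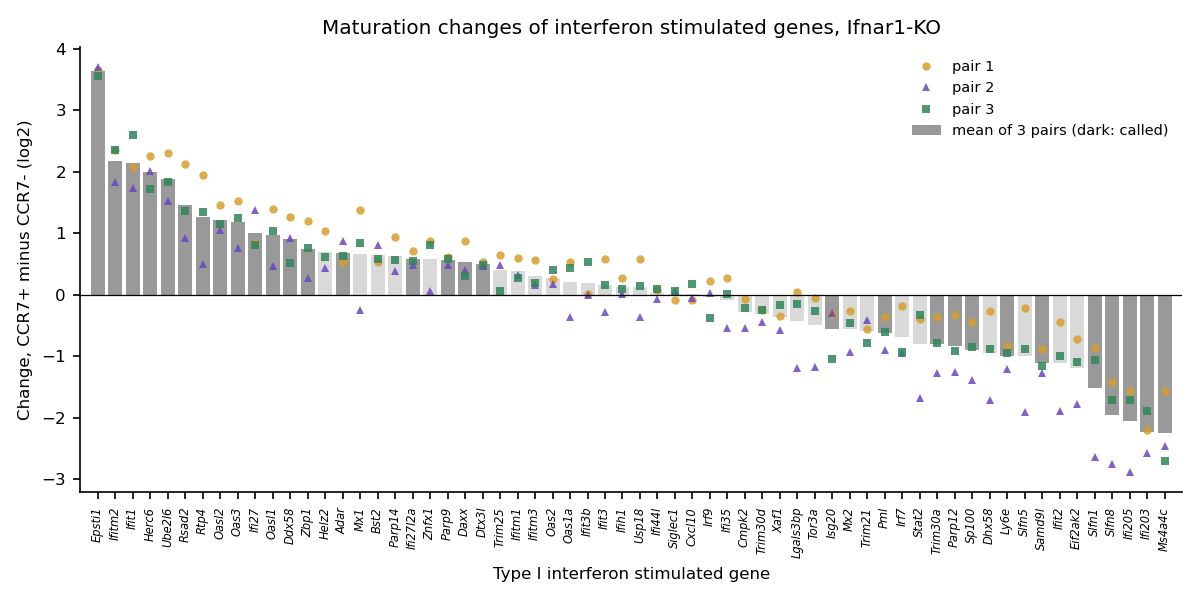
Change of each of 62 type I interferon stimulated genes over maturation in Ifnar1-KO arrays, as log2 CCR7+ minus CCR7-; bars give the mean, dark where the gene was called, and symbols give the 3 numbered pairs. Pair 1 (circles) lies above pair 2 (triangles) for most genes, with median changes of 0.26 and -0.07.

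**Figure D3:**
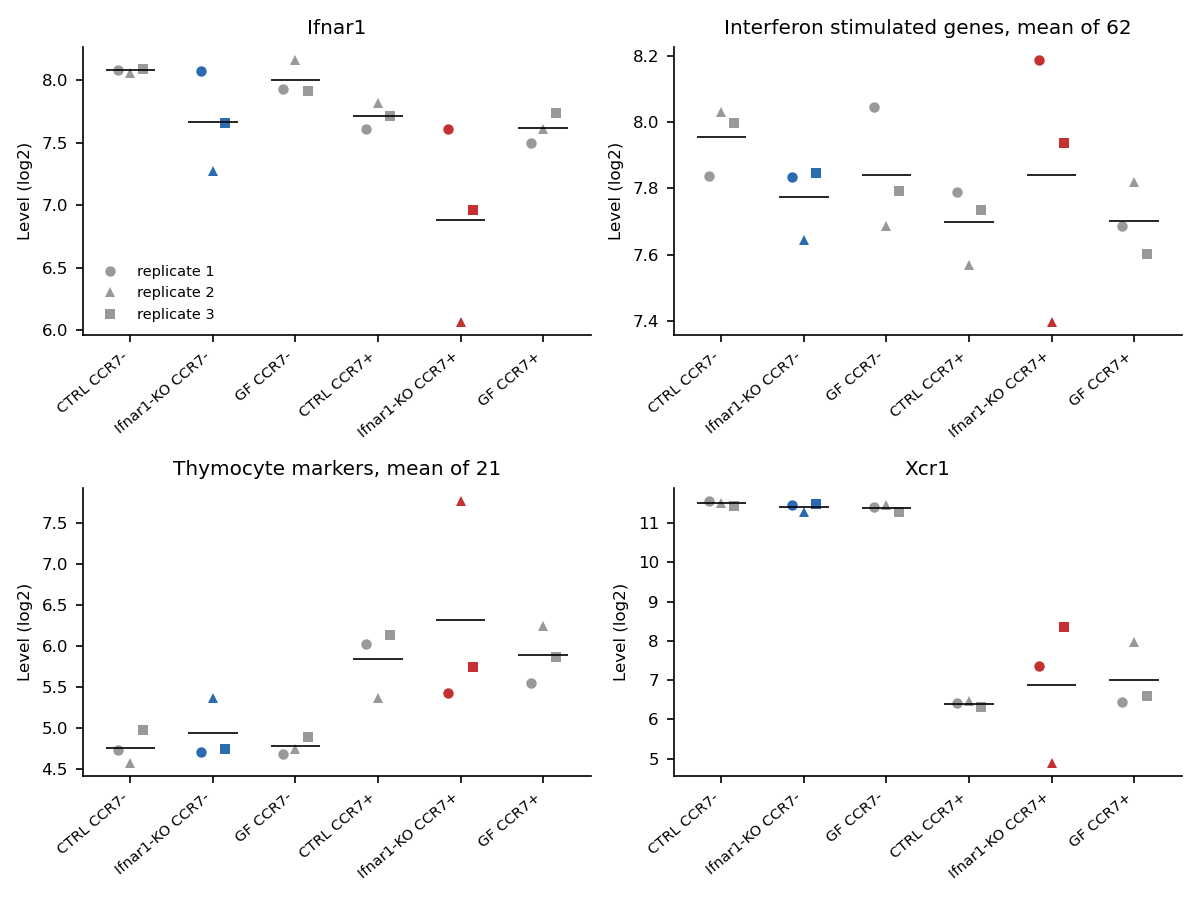
Log2 level on each of the 18 arrays for Ifnar1, the mean of 62 interferon stimulated genes, the mean of 21 thymocyte markers and Xcr1; colours mark Ifnar1-KO arrays, grey CTRL and GF arrays, symbols the replicate and lines the group mean. Axes do not start at 0. Ifnar1-KO CCR7+ replicate 2 (triangle) had the lowest Ifnar1 (6.07) and Xcr1 (4.89) and the highest thymocyte level (7.77) of all 18 arrays.

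Genes induced by interferon gamma mostly rose, 12 of 21 against 3 that fell, with a median of 0.55. The guanylate-binding proteins Gbp5 and Gbp4, which attack vacuoles of intracellular pathogens, rose by 4.78 ± 0.25 and 4.62 ± 0.29. Gbp5 read 5.19, 4.62 and 4.96 in CCR7- and 9.83, 9.21 and 10.07 in CCR7+ cells. Irf1, a transcription factor of this response, rose from 7.03, 6.84 and 6.92 to 10.78, 10.26 and 10.70 (3.65 ± 0.25). Stages were far apart on every array for both. Gbp8 rose by 3.09 ± 0.33. By contrast Ciita, the master factor of MHC class II genes, changed by -2.87 ± 0.21, the CXCR3 ligand Cxcl9 by -1.95 ± 0.36 and the immunity GTPase Irgm1 by -1.40 ± 0.36. The Irgm1 call was lost without CCR7+ replicate 2 and without the pair of number 2 or number 3 (limma adjusted p up to 0.134). Of the 21 genes, Gbp proteins are a family of similar sequence and their probesets may share signal.

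Nucleic acid sensors, adaptors and IRFs were divided, with 5 of 25 higher (20%, against 9.42% of all genes) and 6 lower (24%, against 10.8%). Irf4, which serves migration and antigen presentation of DCs, read 3.88, 3.99 and 4.08 in CCR7- and 7.01, 7.01 and 6.96 in CCR7+ cells (3.01 ± 0.30). The ubiquitin ligase Traf6 rose by 1.86 ± 0.20 and the kinase Tbk1, which activates IRF3, by 1.09 ± 0.22. Tlr3 fell most, followed by the adaptor Myd88 (-1.52 ± 0.22) and Unc93b1 (-1.38 ± 0.16), which carries toll-like receptors to endosomes. The DNA sensor Cgas changed by -0.60 ± 0.20 (limma adjusted p 0.0495), a call lost under 13 of 20 alternatives. Irf8, the factor that makes the XCR1+ DC lineage, read 10.77, 11.04 and 10.85 and then 10.77, 10.59 and 10.37, and Irf3 changed by -0.13 ± 0.18. Neither Irf8 nor Irf3 passed (limma adjusted p 0.176 and 0.756).

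Genes known from mature DCs of many tissues rose almost as a whole, 33 of 34 with a median of 3.27. Like the other lists, that list was chosen with results of these arrays known, so the count is not independent evidence of direction. The exception, Cd86, was chosen after its values were seen and read 10.54, 10.28 and 10.57 in CCR7- and 10.36, 9.99 and 10.20 in CCR7+ cells (-0.28 ± 0.11, limma adjusted p 0.0811). Its stages overlapped. In CCR7- cells replicate 2 was the highest of the 3 arrays for 20 of the 34 genes (58.8%, against 44.2% of all genes), with a mean level of 7.25 against 6.93 and 6.91.

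NF-kB subunits, inhibitors and targets rose for 21 of 24 genes, with a median of 1.41. This pathway drives DC maturation, and its noncanonical arm uses RelB and the Nfkb2 product. Relb read 6.35, 5.95 and 5.98 in CCR7- and 9.82, 9.34 and 9.31 in CCR7+ cells (3.40 ± 0.21). The ubiquitin ligase Birc2 rose by 3.16 ± 0.25, the adaptor Traf1 by 2.25 ± 0.17 and the survival factor Bcl2l1 by 2.16 ± 0.30. The 6 arrays of each gene separated by stage. Nfkb2, itself a target of the pathway, rose by 1.81 on the log2 scale. Its promoter window (chr19:46305445-46305744, plus strand, RefSeq, GRCm38.p6) is shown. Nfkb2 had the largest called rise among list members whose window held the kappa B letters, so that choice fixed the presence of matches. Relb, Birc2, Traf1 and Bcl2l1 rose more but had no window with the letters. Capitals mark matches on either strand to the kappa B letters, GGGA, any 2 bases and TTCC.
Nfkb2: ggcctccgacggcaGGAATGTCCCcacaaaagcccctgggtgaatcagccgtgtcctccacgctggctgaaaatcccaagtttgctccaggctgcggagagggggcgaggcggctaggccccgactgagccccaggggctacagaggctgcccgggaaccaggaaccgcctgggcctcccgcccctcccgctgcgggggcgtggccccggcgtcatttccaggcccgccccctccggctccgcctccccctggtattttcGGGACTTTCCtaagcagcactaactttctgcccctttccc
These letters were held by the windows of 2 of 20 members, Nfkb2 and Nfkbia. The same held for 249 of the 15563 measured genes with a window (1.60%).

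Costimulatory and checkpoint genes rose for 16 of 25 and fell for 4, with a median of 1.39. Pdcd1lg2 (PD-L2) read 4.33, 3.94 and 4.25 in CCR7- and 9.25, 9.37 and 9.09 in CCR7+ cells, and its neighbour Cd274 (PD-L1) read 5.56, 4.93 and 5.61 and then 10.38, 9.62 and 10.23. Both encode ligands of the inhibitory receptor PD-1. Slamf1 rose by 3.60 ± 0.30. Falling members were Havcr2 (TIM-3) at -3.81 ± 0.40, the SLAM family receptors Cd244a and Ly9 at -2.68 ± 0.34 and -2.20 ± 0.30, and the TIM-3 ligand Lgals9 at -1.55 ± 0.23. STAT and SOCS genes rose for 7 of 14 and fell for 0, led by Stat4 and Socs2 and followed by Stat3 and Stat5a (1.49 ± 0.21).

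Chemokine and cytokine genes rose for 11 of 29 and fell for 6. Il12b, the p40 subunit of interleukins 12 and 23, read 8.04, 7.55 and 8.01 in CCR7- and 12.11, 11.04 and 11.53 in CCR7+ cells (3.69 ± 0.50). Ccl19, a ligand of CCR7, rose by 3.71 ± 0.23 and Il15, a growth factor of memory CD8 T and NK cells, by 3.43 ± 0.20. Each of the 3 separated by stage. The inflammatory cytokines Il18 and Il1b changed by -3.17 ± 0.24 and -2.70 ± 0.44, and the chemokines Ccl3 and Ccl4 by -2.37 ± 0.57 and -2.11 ± 0.31. The Ccl3 call was lost without the pair of number 2 or number 3 (limma adjusted p up to 0.0627). Among 12 chemokine receptors, leaving Ccr7 aside, Ccrl2 rose by 2.33 ± 0.43, Cxcr3 fell by 3.97 ± 0.22 and Ccr2 fell by 3.14 ± 0.18. The shares called in this list, 8.33% higher and 16.7% lower, lay near those of all genes (9.42% and 10.8%). Ccr2 ended at 3.87, 3.98 and 4.15, near background.

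Migration and cytoskeleton genes rose for 15 of 29 and fell for 3. Scin, which severs actin filaments, read 4.01, 3.78 and 3.67 in CCR7- and 8.85, 8.76 and 9.21 in CCR7+ cells. Besides Fscn1, the tubulin Tubb2b rose by 4.05 ± 0.32 and Cdc42ep3, which binds the GTPase CDC42, by 3.37 ± 0.32. Coronins and plastin, which organise actin in many leukocytes, went the other way, with Coro1a at -0.98 ± 0.15, Coro1c at -0.74 ± 0.24 and Lcp1 at -0.48 ± 0.13. The Coro1c call was lost without the pair of any number, and that of Lcp1 without the pair of number 3.

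Identity genes of XCR1+ DCs fell for 23 of 32 and rose for 1, with a median of -2.33. Besides Naaa, Tlr3 and Rab7b, Hepacam2 fell by 4.07 ± 0.12, from 8.51, 8.45 and 8.56 to 4.28, 4.46 and 4.56. The dead cell receptor Clec9a read 11.00, 10.43 and 10.80 in CCR7- and 8.46, 7.98 and 8.73 in CCR7+ cells, and Itgae (CD103) 10.61, 10.19 and 10.44 and then 7.01, 5.89 and 8.07. Matured arrays lay below immature arrays for all 3 genes, but those of Itgae spread over more than log2 2. The lineage factor Batf3 was the riser (0.71 ± 0.20), a call lost without the pair of number 1 or number 3. In CCR7+ cells replicate 2 was the lowest array for 24 of the 32 genes (75%, against 31.0% of all genes) and replicate 3 the highest for 19 (59.4%, against 28.9%). The 3 CCR7+ arrays had mean levels of 7.31, 6.84 and 7.57 against 6.89 to 7.09 in CTRL. In bulk RNA fewer cells of a kind and less RNA per cell cannot be told apart.

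Genes of cell division fell together. Of 41 mitosis genes 37 fell and 0 rose, with a median of -2.35, and of 39 DNA replication genes 32 fell and 0 rose, with a median of -1.30. Bub1, a kinase that checks chromosome attachment, read 7.79, 8.22 and 7.97 in CCR7- and 4.19, 4.43 and 3.69 in CCR7+ cells (-3.88 ± 0.29). The mitotic cyclin Ccnb2 read 9.76, 9.83 and 10.04 and then 5.44, 7.88 and 6.91, and the primase Prim1 7.95, 8.61 and 8.20 and then 4.84, 4.85 and 4.83. All 3 separated by stage, although Ccnb2 remained over log2 2 higher on CCR7+ replicate 2 than on replicate 1. The kinesins Kif23 and Kif11, which serve the spindle, changed by -3.67 ± 0.37 and -3.27 ± 0.32, and the helicase subunit Mcm6 by -2.88 ± 0.27. Median changes of the mitosis genes were -2.76, -1.69 and -2.40 in pairs 1, 2 and 3.

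The promoter window of Bub1 (chr2:127831810-127832109, minus strand, RefSeq, GRCm38.p6) is shown because mitosis genes share the cell cycle homology region. Bub1 had the largest called fall among list members whose window held the letters of that region. Capitals mark the letters TTCGAA. Both TTTGAA and TTCGAA were searched on both strands.
Bub1: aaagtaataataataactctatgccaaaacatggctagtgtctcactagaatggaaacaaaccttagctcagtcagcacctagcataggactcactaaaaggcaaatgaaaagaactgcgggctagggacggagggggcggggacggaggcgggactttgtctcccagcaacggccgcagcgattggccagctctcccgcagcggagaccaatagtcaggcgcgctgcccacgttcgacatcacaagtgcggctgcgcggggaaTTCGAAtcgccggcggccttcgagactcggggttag
Windows of 28 of 35 mitosis genes held these letters (80%), and those of 26 of the 31 that fell. The same held for 2963 of the 15563 measured genes with a window (19.0%). Short motifs of this kind occur often, and a match is a description only.

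Ribosome biogenesis genes fell for 28 of 30 and rose for 0, with a median of -1.40. Myc, the factor that drives growth and this program, read 8.20, 8.61 and 8.84 in CCR7- and 5.15, 5.71 and 5.40 in CCR7+ cells (-3.13 ± 0.21). The assembly factor Rrs1 fell by 3.03 ± 0.41, while Nop58 and Dkc1, which modify ribosomal RNA, changed by -2.90 ± 0.28 and -2.79 ± 0.27. Stages did not overlap for any of these 4 genes.

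**Figure D4:**
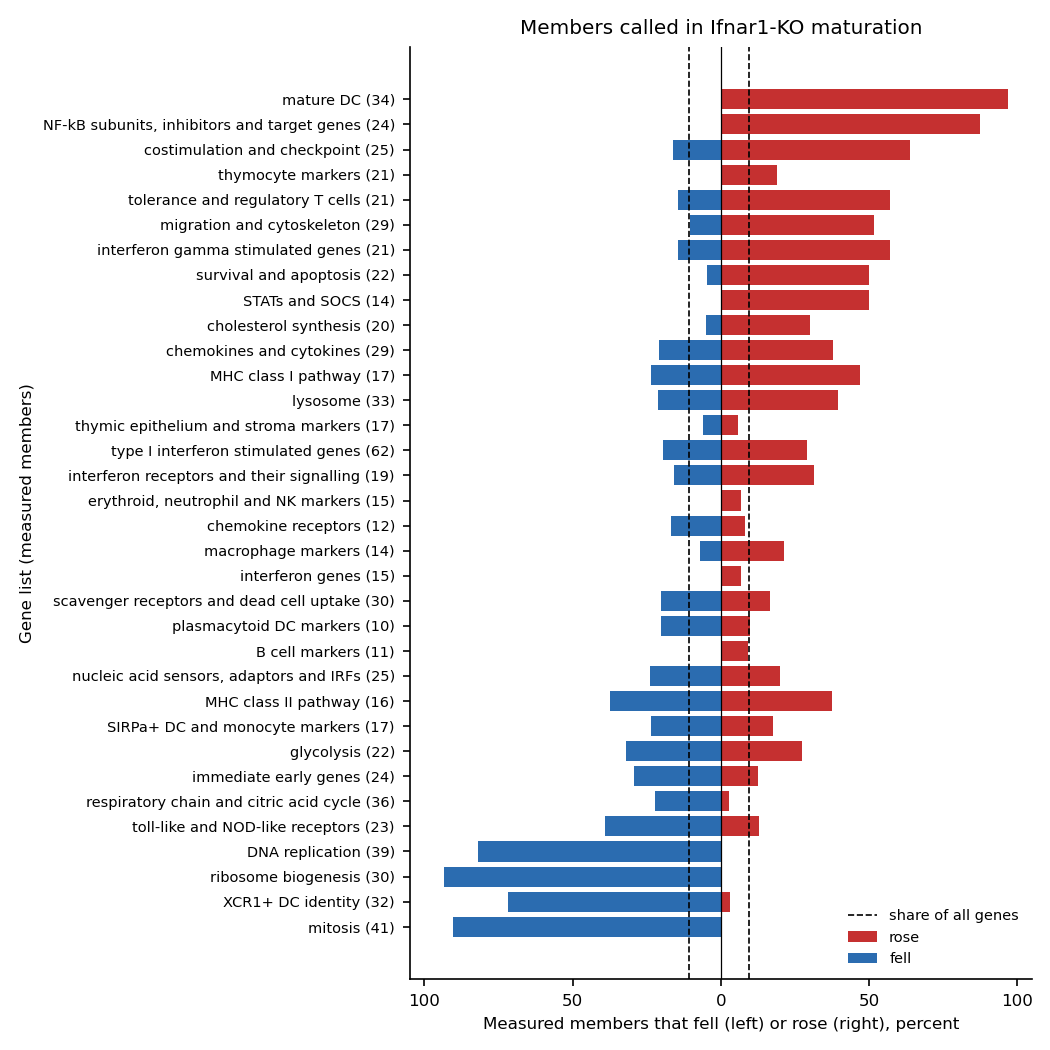
Percent of the measured members of each gene list that rose (red, right) or fell (blue, left) in Ifnar1-KO maturation, with the number measured in brackets and lists ordered by their median change; dashed lines give the share of all 19938 genes called in each direction, 9.42% and 10.8%. Mitosis, ribosome biogenesis and DNA replication lists have only falling calls, and the mature DC list only rising ones.

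Antigen presentation genes went both ways. In the MHC class II pathway 6 of 16 rose and 6 fell. H2-Eb2 rose by 3.75 ± 0.35, from 6.88, 6.24 and 6.07 to 10.36, 10.19 and 9.90, and the lysosomal protease Lgmn by 3.74 ± 0.21. The peptide exchange chain H2-DMa read 11.19, 11.50 and 11.21 and then 9.08, 9.06 and 9.13. No array of one stage reached the other. Marchf1, a ligase that removes class II molecules from the surface, fell by 1.61 ± 0.18. In the class I pathway 8 of 17 rose and 4 fell, among them the peptide editor Tapbpl (1.86 ± 0.14), the class I activator Nlrc5 (1.71 ± 0.39) and Wdfy4, needed to cross-present, at -3.57 ± 0.40. Without the pair of number 1 4 class I genes rose and 3 fell, and the Nlrc5 call was lost.

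Tolerance genes rose for 12 of 21 and fell for 3. Beside Pdcd1lg2, Cd274 and Socs2, the prostaglandin synthase Ptgs2 rose by 3.63 ± 0.23, from 4.58, 4.64 and 4.68 to 8.53, 8.06 and 8.21. Falling members included Tgfb1 (-1.99 ± 0.24) and the aryl hydrocarbon receptor Ahr (-1.79 ± 0.19). Genes of dead cell uptake were divided, with 5 of 30 higher (16.7%, against 9.42% of all genes) and 6 lower (20%, against 10.8%). Mfge8, which bridges dying cells to phagocytes, rose by 3.70 ± 0.20 and the phosphatidylserine-sensing kinase Axl by 1.89 ± 0.31. The scavenger receptors Cd36 and Scarb1 changed by -4.06 ± 0.45 and -2.61 ± 0.26, and Anxa1 by -3.74 ± 0.47. Lysosome genes rose for 13 of 33 and fell for 7, with the membrane proteins Lamp1 (3.42 ± 0.16) and Cd63 (3.33 ± 0.62) higher and the hydrolase Man2b1 (-2.74 ± 0.31) and Cd68 (-2.70 ± 0.32) lower.

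Metabolic and survival lists differed in how many members were called. Cholesterol synthesis genes rose for 6 of 20 and fell for 1, led by Idi1, an isomerase of the pathway, which read 4.88, 5.38 and 5.68 and then 10.01, 10.06 and 9.70. Glycolysis genes rose for 6 of 22 and fell for 7. Pygl, which releases glucose from glycogen, rose by 5.04 ± 0.22 and Pfkfb3, an activator of glycolysis, by 3.23 ± 0.18, while Ldha and Hk2 changed by -2.14 ± 0.30 and -2.10 ± 0.20. Of 36 respiratory chain and citric acid cycle genes 1 rose (Cox5a, 0.82 ± 0.11) and 8 fell, led by fumarase Fh1 (-2.20 ± 0.35). Without the pair of number 2, and in the paired fit, 13 fell. Survival and apoptosis genes rose for 11 of 22 and fell for 1, with the death receptor Fas at 3.92 ± 0.50 and Bcl2l14 at 3.07 ± 0.16 higher, and the death agonist Bid at -1.12 ± 0.20.

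Immediate early genes fell for 7 of 24 (29.2%, against 10.8% of all genes) and rose for 3 (12.5%, near the 9.42% of all genes). Egr2 and Nr4a1, induced by antigen and growth signals in many cells, changed by -2.35 ± 0.38 and -2.29 ± 0.36 and Fos, a subunit of AP-1, by -1.63 ± 0.23. Dusp2, a phosphatase of MAP kinases, rose by 1.45 ± 0.23. Toll-like and NOD-like receptor genes fell for 9 of 23 and rose for 3, with Tlr12 at -1.37 ± 0.22 and Nlrp3 at -1.30 ± 0.20, while the inflammatory caspases Casp4 and Casp1 rose by 2.21 ± 0.18 and 1.28 ± 0.30. The Casp1 call was lost without the pair of number 2.

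Of 21 thymocyte markers 4 rose and 0 fell, with a median of 1.38. In the paired fit 9 rose, but only 1 rose with the 6 Ifnar1-KO arrays fitted alone and 1 with only trailing r arrays. The mean marker level was 4.70, 5.37 and 4.74 in CCR7- and 5.43, 7.77 and 5.74 in CCR7+ cells, against 4.58 to 4.98 and 5.37 to 6.13 in CTRL. Replicate 2 was the highest CCR7+ array for 21 of the 21 markers (100%, against 45.3% of all genes). Cd3d, a T cell receptor subunit, read 4.99, 5.41 and 4.84 and then 6.11, 10.25 and 6.98, and the recombinase gene Rag1 4.34, 6.78 and 4.67 and then 6.02, 10.31 and 7.51. Cd8b1 rose by 2.74 ± 0.40 and kept its call under every alternative run, whereas the Cd3d call was lost without the pair of number 2 or number 3 (limma adjusted p 0.0546 and 0.0632). Median changes of the list were 0.56, 2.41 and 0.73 in pairs 1, 2 and 3. The part of thymocyte RNA in other changes was not tested.

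Markers of other cells are read against the 9.42% of all genes that rose and the 10.8% that fell. B cell markers rose for 1 of 11 (Blnk, 0.46 ± 0.12), and Cd79a, their receptor subunit, read 3.37 to 3.86 on the 6 arrays. Plasmacytoid DC markers rose for 1 of 10, the transcription factor Spib (2.50 ± 0.20), and fell for 2, Siglech (-1.26 ± 0.26) and Tcf4 (-0.70 ± 0.19). The Blnk call was lost without the pair of number 1 or number 3, and that of Tcf4 under 7 of 20 alternatives. Of 17 SIRPa+ DC and monocyte markers 3 rose (17.6%), namely Sirpa, Irf4 and Esam (1.60 ± 0.17). In that list 4 fell (23.5%), namely Ccr2, Csf1r (-1.16 ± 0.14), Clec12a (-1.16 ± 0.20) and Lyz2 (-2.88 ± 0.52). Of 14 macrophage markers 3 rose (21.4%), Spic (2.70 ± 0.41), Vcam1 (1.94 ± 0.22) and C1qb (0.33 ± 0.11), and 1 fell, Hmox1 (-1.17 ± 0.20). C1qb read 3.87 to 4.40 and Adgre1 (F4/80) 3.40 to 3.75 on the 6 arrays, and the C1qb call was lost under 11 of 19 alternatives, the paired fit among them. Of 17 thymic epithelium and stroma markers 1 rose and 1 fell. The part of such cells in other changes was not tested. Of 15 erythroid, neutrophil and NK markers 1 rose, S100a9 (0.99 ± 0.19).

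Whether the change differed from that in wild-type mice was tested directly. Against CTRL 0 of 19938 genes (0%) passed in limma, with 901 (4.52%) at an unadjusted p under 0.05 and a smallest adjusted p of 0.837. Against GF mice 0 (0%) passed, with 660 (3.31%) at an unadjusted p under 0.05. A p that misses the threshold does not show equal changes. Of 2101 genes called in Ifnar1-KO maturation with a change of at least log2 1, the 95% interval of the difference from CTRL lay within log2 1 for 1060 (50.5%), and over all genes its median half-width was 0.38. Larger differences therefore stayed possible for the remainder.

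The smallest p-values were in the adhesion receptor Adgre5, with a change of -1.42 ± 0.13, against -2.45 in CTRL mice (difference 1.03 ± 0.18, limma adjusted p 0.837), and in Gpc1, a cell surface proteoglycan (1.12 ± 0.08 and 1.74). Next came the phosphatase Ptpn22 (-2.58 ± 0.23 and -4.13), Klra5 (-0.47 ± 0.13 and -1.32) and the kinase gene Csnk1g3 (0.14 ± 0.09 and -0.41). Against GF mice Gpc1 and Adgre5 also had small p-values, with Osbp, Lpar6 and Sik1. Both differences use the same Ifnar1-KO arrays, so genes found in both are not independent results. Among the interferon lists the smallest unadjusted p-values included Gbp3, with 2.29 ± 0.20 in Ifnar1-KO and 1.15 in CTRL (p 0.00107 in limma, not passing), and Ly6e, with -0.99 ± 0.16 and -1.81 (p 0.00275 in limma, not passing). List medians in Ifnar1-KO and CTRL stood at 3.27 and 3.10 for mature DC genes, -2.33 and -2.76 for identity genes and -2.35 and -2.96 for mitosis genes. They stood at 0.55 and 0.32 for interferon gamma and 0.12 and -0.12 for type I interferon stimulated genes. Over all genes the medians were 0.00 and 0.07. An unadjusted limma p under 0.05 for the difference from CTRL held for 7 of 41 mitosis genes and 5 of 62 type I interferon stimulated genes. The same held for 3 of 34 mature DC, 2 of 32 identity and 3 of 21 interferon gamma stimulated genes, against 4.52% of all genes.

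**Figure D5:**
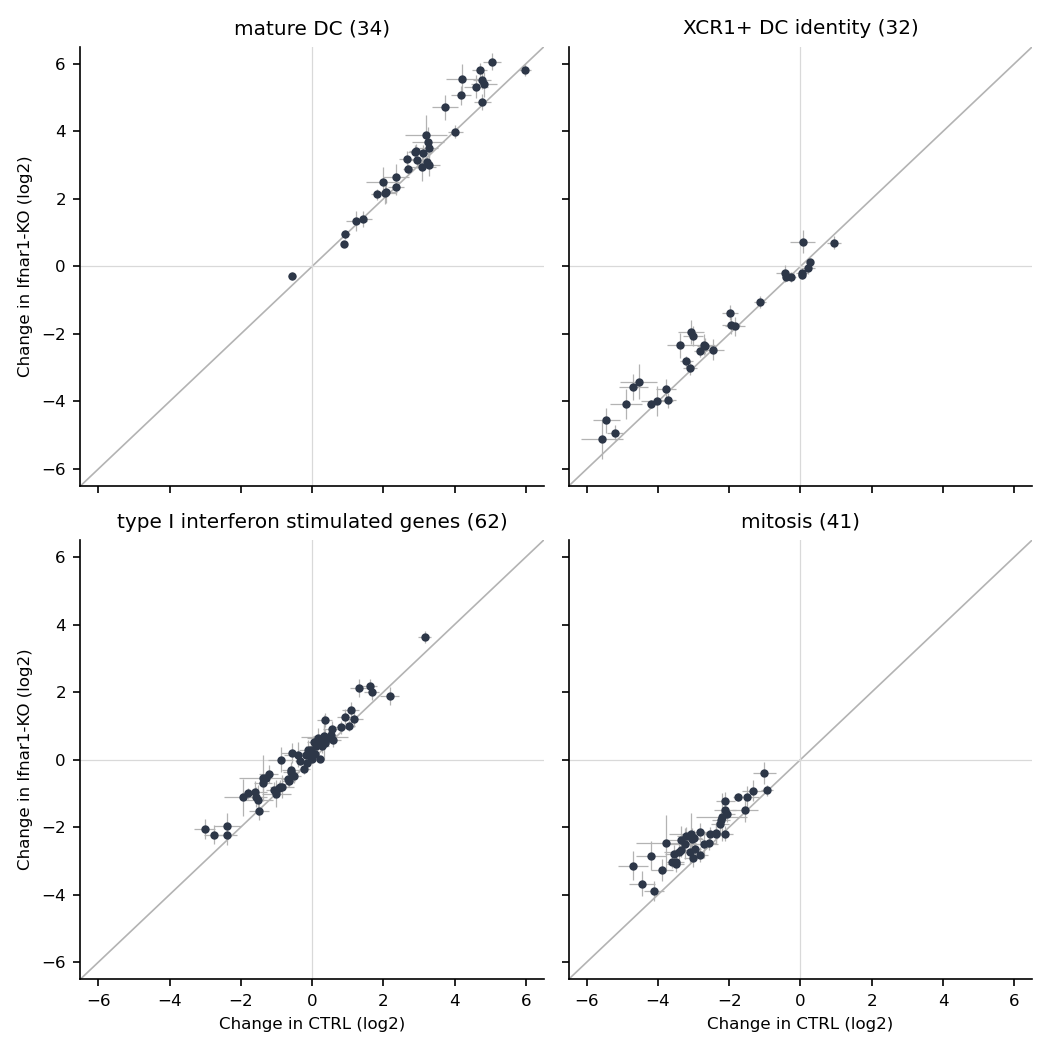
Maturation change of each member of 4 gene lists in Ifnar1-KO (vertical axis) against CTRL mice (horizontal axis), in log2 with SE bars from limma; the diagonal marks equal changes and brackets give the members measured. Mitosis genes lie mostly above the diagonal, with list medians of -2.35 in Ifnar1-KO and -2.96 in CTRL. Those of type I interferon stimulated genes were 0.12 and -0.12, against 0.00 and 0.07 over all genes.

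Sex-linked transcripts differed between the groups compared. Eif2s3y read 6.83, 6.08 and 5.22 in CCR7- and 7.84, 7.69 and 6.35 in CCR7+ Ifnar1-KO cells against 3.34 to 3.49 in CTRL. Xist, the RNA of the inactive X chromosome, read 8.91, 6.61 and 8.03 and then 8.38, 6.14 and 7.73 in Ifnar1-KO cells. Each Ifnar1-KO array thus carried transcripts of both sexes. On CTRL arrays Xist read 7.80 to 9.63. GF arrays read 3.80 to 4.37 for Xist and 7.71 to 8.76 for Eif2s3y. Eif2s3y rose by 1.25 ± 0.38 over maturation, a call lost under 9 of 20 alternatives. The part of sex in the differences of Ifnar1-KO from CTRL and from GF was not tested.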

How the data were processed

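RNA of sorted cells was amplified with the NuGEN Ovation Pico WTA kit from 0.7 to 7.3 ng, per the labels. The authors deposited log2 values, and the submitters' processing notes name RMA and oligo; no version is named, nor if normalisation covered the 18 arrays jointly. Of 35556 probesets, 21789 with exactly 1 gene symbol were kept, and of 999 genes with several the probeset with the highest mean over 18 arrays, which gave 19938 genes. Values were not normalised again or filtered. An array has no read depth, and 3 arrays a group limit the precision: the median 95% half-width of a change was 0.27.

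Linear models were fitted with limma 3.58.1 (R 4.3.3, statmod 1.5.0) over all 18 arrays, 1 mean per group, with 12 residual degrees of freedom, 14.4 after eBayes. Comparisons were the Ifnar1-KO change and its difference from the CTRL and GF changes. Simulated data with 100 genes changed by log2 1 and 100 by log2 2 gave 86% and 99% recovery of the Ifnar1-KO change, with 9 false calls. They held far fewer changed genes than were called here, and noise without pairs or a deviant array. The difference from CTRL was not simulated. Deviations of same-numbered Ifnar1-KO arrays correlated across stages at 0.284, 0.321 and 0.236, so the numbers were also fitted as pairs. That fit paired the CTRL and GF arrays too, where the correlations were 0.188, 0.147 and 0.100, and 0.267, 0.00354 and 0.0296. Its p-values rest on the spread within all these pairs. The fit without the block was kept as the main one. Main calls and adjusted p-values therefore ignore this pairing, and calls of named genes that the paired fit moved are given in the text.

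Members and lists were chosen with earlier results of these data known. Named genes were the 12 largest called changes per direction without overlap between stages (predicted genes, clones, small RNAs and sort genes left out), up to 4 called members per list and direction, sort genes, markers, interferon list members, the 5 smallest p-values of each difference and the 5 largest SDs per stage. Listed genes without a probeset of 1 symbol were not analysed here. Promoters came from RefSeq for 15563 genes, of which 2628 had more than 1 window. A gene counted if any window held the letters. Printed promoters were those of the largest called changes among list members whose window held the letters. Figures were drawn with matplotlib 3.10.9 (Python 3.11.15, pandas 2.3.3, numpy 2.4.6).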

Additional observations from a re-analysis of the deposited data

How the results depend on the processing

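Called genes numbered 4036, against 3984 to 4571 under an intensity trend, array weights, a filter at the median level, median centring, averaged probesets, separate probesets, or the trailing r as covariate. With the replicate block 4353 genes were called (2040 higher, 2313 lower). Leaving out 1 array at a time gave 3362 to 4129, both Ifnar1-KO arrays of 1 number 2963 to 3802, only the 6 Ifnar1-KO arrays 2937 and only the 12 SPF arrays 4145. With only arrays carrying a trailing r, which leaves 2 Ifnar1-KO pairs, 2130 were called (1061 higher, 1069 lower). The difference from CTRL had 0 calls in every fit run. The difference from GF had 0 to 1 when 1 array was left out, with 1 without Ifnar1-KO CCR7+ replicate 1 and 1 without GF CCR7- replicate 1, and 0 otherwise.

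Over 6064 comparisons of 305 named genes with an alternative, none turned direction while called, 273 lost a call and 99 gained one; 56 of the 223 called genes lost it at least once. Besides the calls given with the results, the block ended those of C1qb (adjusted p 0.105) and Tlr4 (0.051) and added Cd3g, Cenpe, Jak1, Ptpn6, Thy1 and Ticam1; it changed no other call of a named gene.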

Other observations

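Some transcripts set single Ifnar1-KO arrays apart. In CCR7- cells the largest SDs were in Kmt2d, a histone methyltransferase gene (8.81, 5.43 and 8.97), Trrap, an acetyltransferase scaffold (8.02, 4.66 and 8.16), the kinetochore kinesin Cenpe (7.82, 4.22 and 7.79), Hyal3 (4.53, 7.99 and 4.47) and Thy1 (5.41, 8.93 and 4.78). In each of these genes replicate 2 was the array that differed, low in the first 3 and high in the others. In CCR7+ cells the largest SDs were in Dntt (4.26, 8.94 and 5.15), Cd3d, Rag1, Cd3g (5.55, 9.53 and 6.66) and Themis, all thymocyte genes highest on replicate 2. Median SDs over all genes were 0.147 and 0.128 in Ifnar1-KO CCR7- and CCR7+ cells and 0.0927 and 0.123 in CTRL.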
